A study of Mus musculus with 20 samples.

Results

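CD4+ iNKT1 cells of digested liver were compared between 2 mouse strains, BL6 (C57BL/6N) and BALB/c (BALB/cAnNCrl), in 6 of the 20 RNA-sequencing libraries of the series. These were the 3 BL6 libraries N0963, N0969 and N1225 and the 3 BALB/c libraries N0971, N0972 and N1229, chosen by strain, organ and preparation as the labels give them. All mice were untreated young adult females without an engineered allele, and each library was made from cells of several pooled mice. After perfusion, liver tissue was treated in the warm with DNase I and collagenase D, and the cells that were CD3+, bound the CD1d tetramer, carried CXCR3 and CD4 and lacked B220 and CD138 were sorted. The 5 libraries of cold-meshed liver (3 BL6, 2 BALB/c) served as a comparison, and blood, spleen and thymus were sampled from BL6 mice only.

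Invariant NKT cells are T cells whose receptor, built on a fixed alpha chain, recognizes glycolipids on the MHC-like molecule CD1d. The iNKT1 subset is defined by the transcription factor T-bet, is known for rapid secretion of IFN-gamma, shares many receptors with NK cells and is abundant in mouse liver. The strains differ in known ways that touch these cells: they carry different MHC haplotypes (H-2b in C57BL/6, H-2d in BALB/c), different arrays of NK receptor genes on chromosome 6, and different alleles of immune genes such as Klrb1c, which encodes NK1.1, an antigen that the standard antibody detects on C57BL/6 but not on BALB/c cells. Reads of all libraries were aligned to the mouse reference genome, which is that of C57BL/6J. For BALB/c reads that differ from this sequence the part of alignment in a difference between strains was not tested.

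The cells carried the transcripts that name them in both strains. Tbx21, which encodes T-bet, had 3337, 3463 and 3260 normalized reads in BL6, against 3028, 2736 and 3104 in BALB/c (log2 fold change 0.18 ± 0.12 (SE), adjusted p = 0.52). Il2rb, the CD122 chain of the IL-15 receptor, had 31561, 32390 and 26714 in BL6, against 24464, 26713 and 26321 in BALB/c. Zbtb16 (PLZF), Cxcr3 and Traj18, the joining segment of the invariant alpha chain, lay between -0.12 and 0.05 on the log2 scale. None of the 5 tested identity genes was called. Tbx21 and Il2rb were higher in BL6 without overlap of the groups, as 20.4% of all genes tested had no overlap. Over all genes tested limma called 3.71%, so a list this short can hold no call. The strains are thus not shown to be alike in these genes. Trav11 and Trav11d, the variable segments of that chain, were listed at 0 in all 6 libraries.

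Totals were 9336861 to 17767674 reads in BL6 and 10654067 to 10937727 in BALB/c. Sorted cell numbers did not overlap between strains, with at least 33500 cells in each BL6 library and at most 25500 in each BALB/c library. The share of reads from mitochondrial ribosomal RNA did not overlap either, at 12.4 to 14.4% in BL6 and 15.4 to 19.3% in BALB/c. Cell number and strain cannot be told apart in these libraries. Transcripts of other liver and blood cells were uneven between libraries; in such bulk samples fewer cells of a type and less RNA per cell cannot be told apart, and the part of these cells in the results was not tested. The 12 hepatocyte genes summed to 67.2 to 204 reads in BL6, against 20.4 to 1793 in BALB/c, the highest being N0972. Library N0971 had 232 reads of Cd8a, 125 of Mpo and 1024 of Hbb-bs, against at most 78.2, 0 and 407 in BL6. None of the 6 tested hepatocyte genes, 3 Kupffer and dendritic cell genes, 5 erythroid genes and 2 CD8 genes was called by limma, edgeR or DESeq2, and none of these had an unadjusted p under 0.05. Over all genes tested limma called 3.71%, so lists this short can hold no call. With high reads in single BALB/c libraries, these tests cannot show that the strains were alike. Genes of gamma delta T cells were lower in BL6 without passing the adjusted threshold: of 5 tested, 4 had an unadjusted p under 0.05 and none was called by limma, edgeR or DESeq2, with a median log2 fold change of -0.52. The list summed to 2697 to 3492 reads in BL6, against 3527 to 5169 in BALB/c, nearly all of them from Tcrg-C1, Tcrg-C2 and Tcrg-C4. Trdc, the constant region of the delta chain, had 2.10, 3.01 and 6.53 reads in BL6, against at most 34.0 in BALB/c (-2.34 ± 0.71, adjusted p = 0.099).

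The strain difference was tested by limma on log2(normalized reads + 1) in the 11 liver libraries, for 13202 genes with at least 10 reads in 3 libraries, and a gene was called at a Benjamini-Hochberg adjusted p under 0.05. Of the 13202 genes, 490 (3.71%) were called, 252 (1.91%) higher in BL6 and 238 (1.8%) lower in BL6. The differences were large: 130 called genes were more than 4 log2 units apart, 51 higher and 79 lower in BL6, 265 were 1 to 4 units apart, and 95 were under 1 unit. All 490 called genes had non-overlapping groups, as had 2697 of all genes tested (20.4%). Unadjusted p was under 0.05 for 2043 genes (15.5%), 981 higher (7.43%) and 1062 lower (8.04%) in BL6. On the reads recovered from the normalized values, edgeR called 475 genes (3.6%) and DESeq2 863 (6.54%). A gene called by limma separated all 3 BL6 from all 3 BALB/c libraries. The count fell to 309 without BL6 library N0963 and to 303 without BL6 library N0969. With a 3-fold difference or more required, together with an unadjusted p up to 0.05 and a library above 300 reads, 125 genes (0.947%) passed, 54 higher (0.409%) and 71 lower (0.538%) in BL6.

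**Figure D1:**
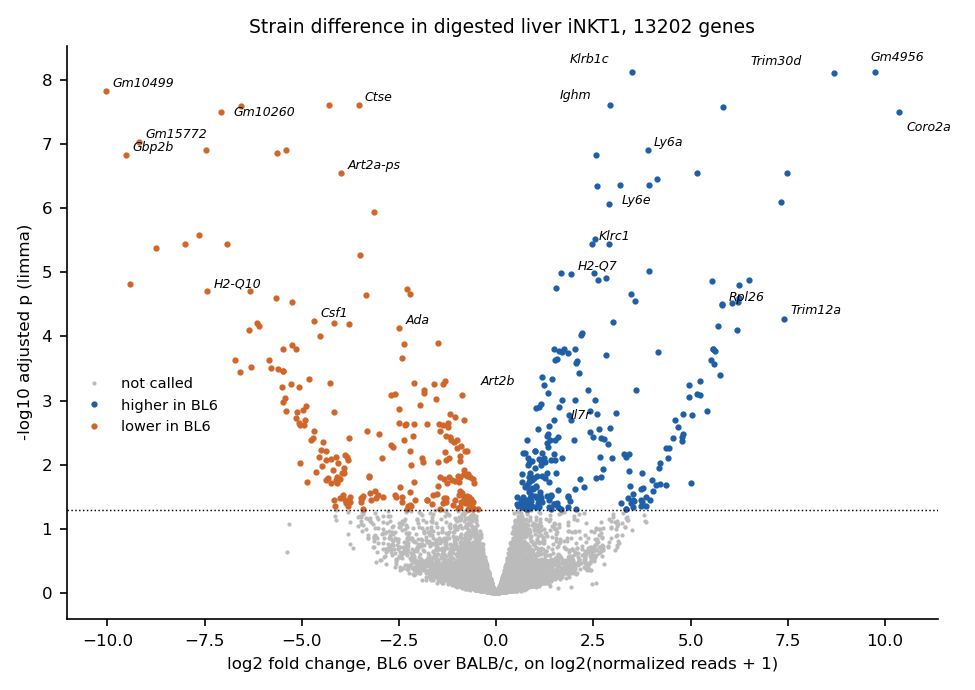
Each point is 1 of 13202 genes, with its log2 fold change (BL6 over BALB/c) on the horizontal axis and -log10 of the limma adjusted p on the vertical axis; the dotted line marks an adjusted p of 0.05. Genes called higher in BL6 (252, blue) and lower in BL6 (238, orange) reach more than 10 log2 units on each side.

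The same comparison was made in the libraries of cold-meshed liver. By the study's methods, part of each liver was digested and part was meshed in the cold. The labels do not say which cold and digested libraries came from the same mice. Agreement between the preparations is therefore not shown to be replication in other mice. There 340 genes (2.58%) were called, 186 higher (1.41%) and 154 lower (1.17%) in BL6, with 1288 (9.76%) at an unadjusted p under 0.05, and 274 genes were called in both preparations, 55.9% of those called in digested liver and 80.6% of those called in cold liver. All 274 had the same direction. Of the 490 genes called in digested liver, 478 (97.6%) had the same sign in cold liver, against 66.6% of all genes tested. Library number ranges were unbalanced between strains in cold liver, and the count there was 655 without BALB/c library N1227, 183 without BALB/c library N0970 and 209 without BL6 library N1383.

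The test of the difference between preparations, the strain by preparation interaction, called none of 13202 genes by limma, with 348 genes (2.64%) at an unadjusted p under 0.05. By edgeR none was called either, with 378 (2.86%) at an unadjusted p under 0.05, and by DESeq2 1 was called (0.00757%), with 459 (3.48%). A gene called in 1 preparation alone is thus not shown to differ between preparations. Nor are the preparations shown to be alike: in simulated data limma called the interaction for 31.6% of genes changed 3-fold and 3.06% of those changed 2-fold.

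**Figure D2:**
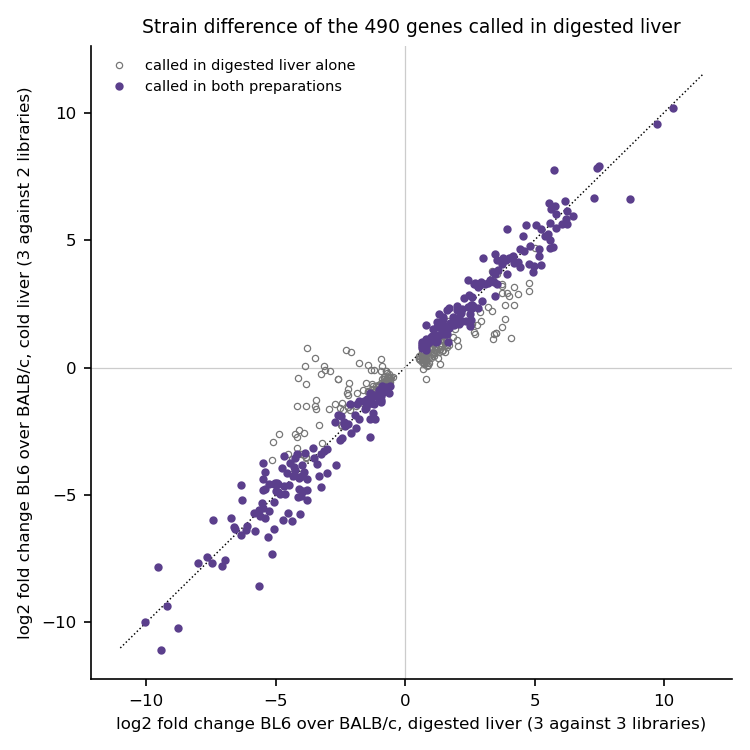
Each point is 1 of the 490 genes called in digested liver, with its log2 fold change (BL6 over BALB/c) in digested liver on the horizontal and in cold liver on the vertical axis; filled points (274) were called in both preparations, and the dotted line marks equal values. Filled points keep to the diagonal, and 12 of 490 points lie on the opposite side of 0 in cold liver.

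At the far end of the comparison stood genes with reads in 1 strain and nearly none in the other. Coro2a, which encodes an actin-binding coronin (chromosome 4, 46536937 to 46602202, GRCm38), had 1982, 1869 and 2481 normalized reads in BL6, against 0, 3.16 and 0 in BALB/c (10.35 ± 0.52, adjusted p = 3.2e-08). Gm4956, an annotated pseudogene on chromosome 1, had 672, 1038 and 902 in BL6 and 0 in all 3 BALB/c libraries, which makes it at least 214-fold higher in BL6 against a floor of 3 reads per library. Trim30d, a member of the TRIM family of ubiquitin ligases, had 408, 364 and 460 in BL6 and again 0 in BALB/c, at least 101-fold higher by the same floor. In these genes the BALB/c libraries were at or close to no reads, so that a fitted fold change depends on the pseudocount.

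Other protein-coding genes among the 15 highest were Trim12a, Rab6b, Gpnmb, Camk2b, Ly6a and Apol7e. Trim12a had 1153, 1186 and 1012 reads in BL6, against 32.5, 3.16 and 1.07 in BALB/c (7.40 ± 0.77). Rab6b, a small GTPase of Golgi transport, had 365, 247 and 292 in BL6, against 9.90, 0 and 5.36 in BALB/c. Gpnmb, a transmembrane glycoprotein best known from macrophages and melanocytes, had 377, 340 and 319 in BL6, against 5.66, 3.16 and 9.65 in BALB/c. Camk2b, a subunit of calcium/calmodulin-dependent kinase II, averaged 750 ± 116 in BL6 and 42.4 ± 12.8 in BALB/c (SD, n = 3 each). Non-coding or pseudogene entries made up the rest of this end: Gm1966, Hmgb1-ps8, Gm36723, AI506816 and 5830417I10Rik ran from 3.59 to 5.83 on the log2 scale. Rpl26 and Ly6a are described with their families.

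At the opposite end, Gbp2b, a guanylate-binding GTPase (chromosome 3, 142594847 to 142619179), had 0, 0 and 0.653 reads in BL6, against 767, 951 and 910 in BALB/c (-9.53 ± 0.56, adjusted p = 1.5e-07). Gfra2, the neurturin receptor, had 0, 13.5 and 0.653 in BL6, against 398, 152 and 356 in BALB/c. Scg5, a secretory chaperone also called 7B2, had 10.5, 6.01 and 8.49 in BL6, against 557, 480 and 357 in BALB/c. These 3 genes had at most 13.5 reads in any BL6 library. Rprl2 and Rprl3, annotated as RNase P RNA-like genes, had at most 1.05 and 3.92 reads in BL6, against 142 to 3443 and 336 to 2084 in BALB/c, so that the BALB/c libraries themselves differed widely.

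These 30 genes were then read in all libraries of the series. All 15 of the lowest genes were under every BALB/c library of the series (5 libraries) in each of the 15 BL6 libraries, those of blood, spleen and thymus included. Of the 15 highest genes, 14 were above every BALB/c library in each BL6 library. Of the 236 called genes with over 300 reads (1.79% of those tested) from which the 30 were taken, 142 were separated in this way over all 20 libraries. All 236 had been chosen for no overlap between the 6 digested liver libraries, which are among the 20. On the BALB/c side only the 2 cold liver libraries were therefore new, and these may share mice with the digested ones. How many of all tested genes were separated in this way was not counted. The exception among the 15 highest was Gm4956, which had 811 to 1724 reads in BL6 blood and spleen but 0 to 12.6 in BL6 thymus.

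**Figure D3:**
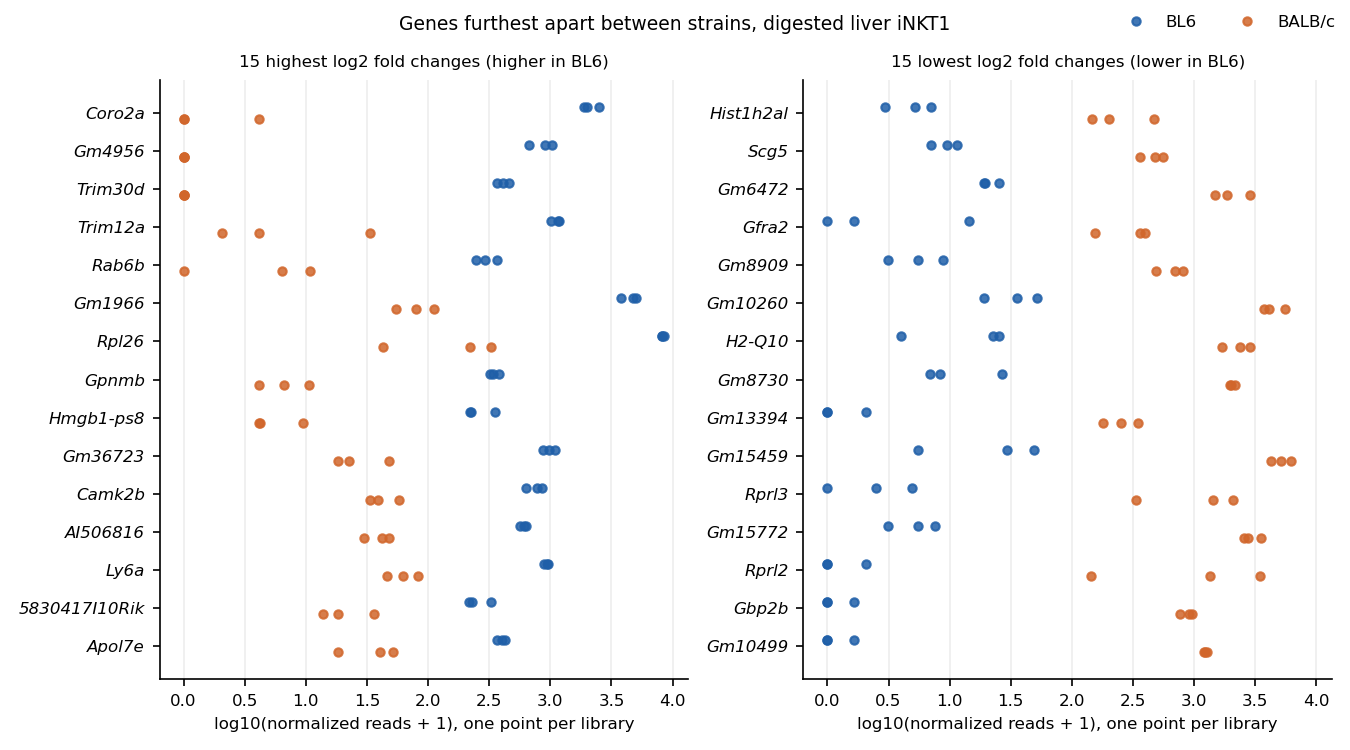
Points show log10(normalized reads + 1) of each digested liver library, BL6 in blue above BALB/c in orange, for the 15 genes with the highest and the 15 with the lowest log2 fold changes among called genes with over 300 reads. The 3 BL6 and the 3 BALB/c points are apart in each of the 30 genes, as the choice of genes required.

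Many of the lowest genes were copies of other genes, and reads of 75 bases can tell a copy from its parent only where the sequences differ. Called pseudogenes (60) and predicted coding genes (13) were therefore aligned with the protein-coding transcripts of GENCODE M21 (GRCm38). Of these 73, 68 matched a protein-coding gene, 56 at an identity of at least 90% over at least 50% of the copy. Of the 56, 47 were lower and 9 higher in BL6. Processed pseudogenes, which derive from messenger RNA, were called lower in 32 and higher in 8 of 464 tested (8.62% called), against 160 lower and 213 higher among 10655 protein-coding genes (3.5% called).

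The sequences below show how little separates 4 of these copies from their parents. Each line is a stretch of 75 bases of the parent's coding sequence, as long as a read and chosen to hold the most differences without a gap, with the same stretch of the copy under it, in GRCm38 and written 5′ to 3′ on the transcript's strand; capitals mark the bases that differ.
Rpl26 (chr11:68902413-68903223, + strand, spliced): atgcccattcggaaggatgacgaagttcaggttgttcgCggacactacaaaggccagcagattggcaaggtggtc
Gm15772 (chr5:3236569-3236643, + strand): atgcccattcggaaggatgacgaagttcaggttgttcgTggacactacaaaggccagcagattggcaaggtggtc
Hspa8 (chr9:40801998-40802072, + strand): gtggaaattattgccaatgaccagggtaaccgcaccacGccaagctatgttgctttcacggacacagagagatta
Gm15459 (chr5:5783406-5783480, - strand): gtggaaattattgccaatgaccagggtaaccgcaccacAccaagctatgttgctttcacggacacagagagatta
Rplp0 (chr5:115561153-115561227, + strand): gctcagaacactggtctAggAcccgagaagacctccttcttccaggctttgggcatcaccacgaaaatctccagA
Gm8730 (chr8:102865352-102865426, - strand): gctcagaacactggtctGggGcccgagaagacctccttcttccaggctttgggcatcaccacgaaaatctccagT
Rps18 (chr17:33952112-33952288, - strand, spliced): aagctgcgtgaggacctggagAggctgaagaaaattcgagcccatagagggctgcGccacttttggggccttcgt
Gm10260 (chr13:97760199-97760273, - strand): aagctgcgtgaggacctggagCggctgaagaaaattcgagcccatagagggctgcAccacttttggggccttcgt

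Rpl26, a protein of the large ribosomal subunit, and Gm15772, its copy on chromosome 5, moved in opposite directions. Rpl26 had 8517, 8117 and 8130 reads in BL6, against 327, 221 and 41.8 in BALB/c (5.82 ± 0.58, adjusted p = 3.2e-05). Gm15772 had 2.10, 4.51 and 6.53 in BL6, against 2736, 3537 and 2576 in BALB/c (-9.18 ± 0.50, adjusted p = 9.2e-08). The copy differs from Rpl26 at 2 of 438 aligned bases, and 58.8% of the 75-base windows of that alignment hold no difference. The copy took 0.0246 to 0.0802% of the reads of the pair in BL6 and 89.3 to 98.4% in BALB/c. Summed, the pair had 8520, 8122 and 8137 reads in BL6, against 3063, 3758 and 2618 in BALB/c.

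In 5 other pairs the copy's share in BALB/c ran from 11.3% to 73.0%, the highest being that of Gm10260, which held 66.1 to 73.0% of the reads it shared with Rps18. Hspa8, the constitutive HSP70 chaperone, averaged 21060 in BL6 and 14740 in BALB/c (adjusted p = 0.34), and its copy Gm15459 averaged 27.1 in BL6 and 5196 in BALB/c. The sum of this pair overlapped between strains, with 25826, 17344 and 20088 in BL6, against 15836, 19111 and 24869 in BALB/c. For Rplp0 and Gm8730 the sum was 14089, 15000 and 12617 in BL6, against 10931, 10657 and 9394 in BALB/c. For Rps18 and Gm10260 the order was the other way, at 4517, 4071 and 3641 in BL6, against 8384, 6182 and 5130 in BALB/c. Rps7 and its copy Gm6472 summed to 5105, 4740 and 4520 in BL6, against 7487, 7831 and 5382 in BALB/c. Slc28a2, a nucleoside transporter, was higher in BL6 alone (1.18 ± 0.16) and with its copy Gm14085, whose 0 to 3.01 reads in BL6 stood against 64.8 to 213 in BALB/c. The strain difference of a parent gene read alone was thus not always that of the summed pair. How reads were divided within a pair, and whether the copy itself is transcribed in BALB/c, was not tested.

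**Figure D4:**
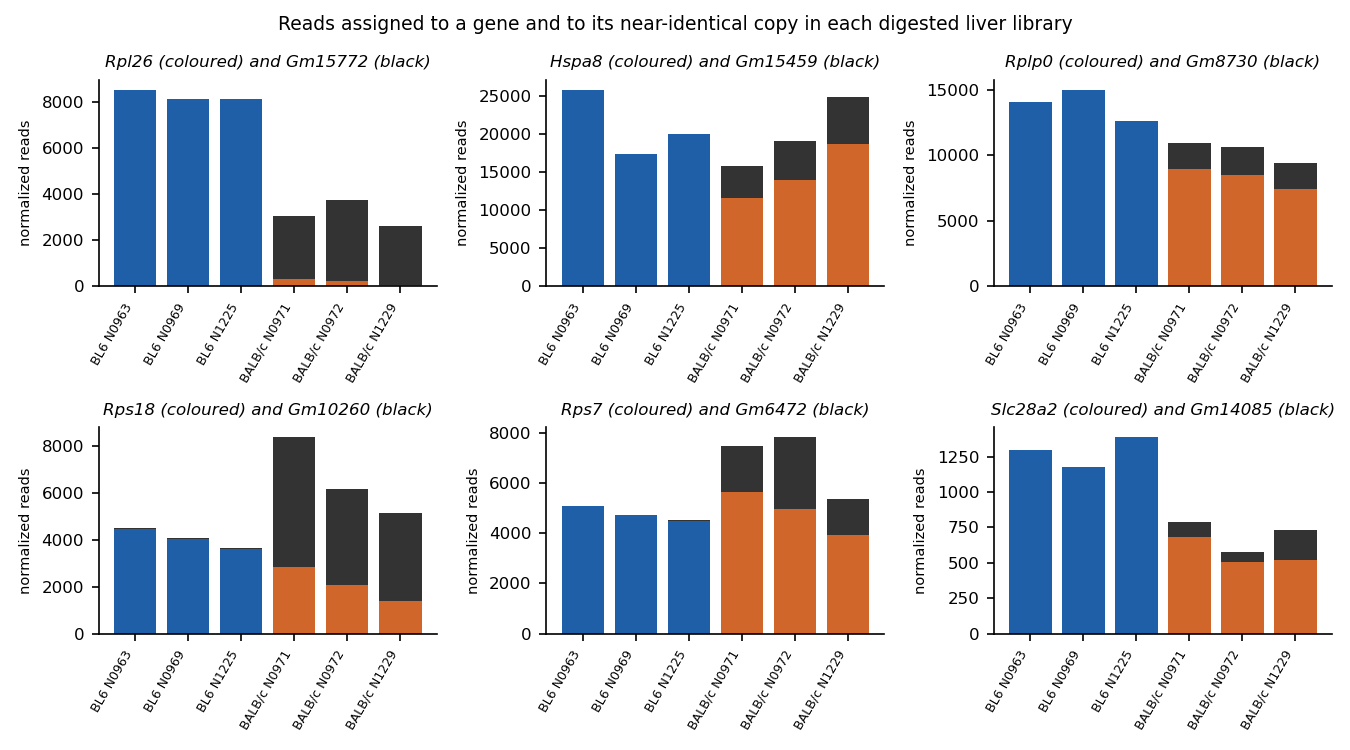
Bars give the normalized reads of each digested liver library for 6 parent genes (blue in BL6, orange in BALB/c) with the reads of their copies stacked on top in black. The copies are nearly absent in BL6 and hold 11.3 to 98.4% of the pair's reads in BALB/c.

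In the MHC of chromosome 17, whose class I molecules present peptides to T cells and engage NK receptors, class I genes went in both directions. Of 28 tested genes of class I and peptide loading, 4 were called higher and 4 lower in BL6 (28.6% called, against 3.71% of all genes). Their median log2 fold change was -0.08, beside 0.00 over all genes. H2-K1 had 25092, 23783 and 21853 reads in BL6, against 11726, 10749 and 10491 in BALB/c (1.10 ± 0.16, adjusted p = 0.0012). H2-Q7, which encodes the Qa-2 antigen, had 3860, 3992 and 3460 in BL6, against 736, 1088 and 1207 in BALB/c (1.93 ± 0.17). Nlrc5, the transactivator of class I genes, and Tap1, a subunit of the peptide transporter, were higher by 0.90 and 0.54 log2 units. H2-D1 and B2m, the light chain, were not called, at -0.07 ± 0.18 and 0.18 ± 0.18.

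H2-Q10 had 24.1, 3.01 and 21.5 reads in BL6, against 2388, 1697 and 2849 in BALB/c (-7.43 ± 0.70, adjusted p = 2.0e-05). This gene is known as a class I product secreted by the liver, and albumin transcripts (Alb) in the same libraries were 49.3, 101 and 10.4 in BL6, against 108, 675 and 3.22 in BALB/c. The part of hepatocyte RNA in the H2-Q10 reads was not tested. H2-Q1, H2-Q2 and H2-T23 were also lower in BL6, at -6.35, -4.26 and -0.82. H2-T23 encodes Qa-1, the ligand of the NKG2A receptor, and had 1649, 1886 and 1608 reads in BL6, against 3155, 2962 and 2951 in BALB/c. Gm10499 and Gm8909, class I-like genes of the same region, had at most 0.653 and 7.84 reads in BL6, against 1204 to 1281 and 485 to 809 in BALB/c. A stretch of Gm10499 aligned to H2-D1 at 92.9% identity, and its 75 bases with the most differences show 11.
H2-D1 (chr17:35263856-35263930, + strand): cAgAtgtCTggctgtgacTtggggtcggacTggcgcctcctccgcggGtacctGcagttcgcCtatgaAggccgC
Gm10499 (chr17:36145096-36145170, - strand): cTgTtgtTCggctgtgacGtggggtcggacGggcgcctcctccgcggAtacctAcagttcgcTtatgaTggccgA

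Class I genes are alike in sequence and vary between H-2b and H-2d, so the division of reads among H2-K1, H2-D1, the H2-Q genes, Gm10499 and Gm8909 is uncertain. Of 9 tested class II genes, H2-Ea-ps alone was called (11.1%, against 3.71% of all genes). It had 0 reads in all 3 BL6 libraries and 22.6, 9.48 and 99.7 in BALB/c. The E alpha gene is known to be defective in the H-2b haplotype. The call for H2-Ea-ps was lost when any of the BL6 libraries was left out, with an adjusted p of up to 0.064.

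Of 24 tested NKG2, NKR-P1 and other NK receptor genes, 6 were called higher and 2 lower in BL6 (33.3% called, against 3.71% of all genes). Klrb1c (chromosome 6, 128778485 to 128789215) had 2493, 2624 and 2406 reads in BL6, against 219, 205 and 243 in BALB/c (3.49 ± 0.14, adjusted p = 7.4e-09). Klrc1, which encodes the inhibitory receptor NKG2A, had 2052, 2836 and 2622 in BL6, against 440, 393 and 508 in BALB/c (2.48 ± 0.20, adjusted p = 3.6e-06). Klre1, which pairs with lectin-like receptors of NK cells, had 414, 505 and 603 in BL6, against at most 71.8 in BALB/c. The groups did not overlap in these 3 genes, as in every called gene and in 20.4% of all genes tested.

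Smaller differences were seen for Cd160 (1.17 ± 0.23), Klrd1, the CD94 partner of NKG2 chains (0.92 ± 0.23), and Klrk1, the activating receptor NKG2D (0.66 ± 0.16). Klrk1 had 1785, 1744 and 2141 reads in BL6, against at most 1419 in BALB/c, and its adjusted p of 0.037 ran up to 0.15 in the alternatives. Klrd1 and Klrk1 each lost the call in 7 of 19 alternatives, Klrd1 with an adjusted p of up to 0.17. Klrb1a and Klri1 were lower in BL6, at most 5.24 and 1.96 reads there against 34.3 to 72.7 and 14.1 to 39.5 in BALB/c. H60b, a ligand of NKG2D that was picked out after its values were seen, had 0, 0 and 9.79 reads in BL6, against 218, 239 and 238 in BALB/c (-6.72 ± 0.83).

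Among the Ly49 genes, whose number differs between mouse strains, 6 were tested and 3 called. Klra9 had 163, 171 and 170 reads in BL6, against 4.24, 20.5 and 6.43 in BALB/c (4.16 ± 0.50), and Klra1 had 344, 459 and 300 in BL6, against 99.0, 139 and 101 in BALB/c (1.69 ± 0.32). Klra5 was lower in BL6, with at most 24.2 reads against 99.0, 142 and 61.1 in BALB/c, and was not called in 6 of 18 alternatives (adjusted p up to 0.13). Klra3 was not called (-0.10). Reads of Ly49 genes can be divided among near-identical family members, and BALB/c genes absent from the reference have no place of their own, which makes these values uncertain. Of the other NK genes, Ncr1, which marks NK cells and ILC1, had 12.6 to 28.7 in BL6, against 62.3, 126 and 99.7 in BALB/c (adjusted p = 0.18), and Eomes stayed at or under 20.9 in all 6 libraries. Klra4 and Klra8 had at most 6.29 reads. The 9 NK and ILC1 genes, Klrb1c among them, summed to 2833 to 3047 in BL6 and 656 to 768 in BALB/c. Without Klrb1c the other 8 summed to 340, 423 and 461 in BL6, against 525, 450.0 and 524 in BALB/c, and the strains overlapped.

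The Ly6 genes of chromosome 15 encode small lipid-anchored surface proteins, several of them used as T cell activation markers. Of 5 tested, 3 were called higher and 1 lower in BL6 (80.0% called, against 3.71% of all genes). Ly6a (Sca-1) had 953, 938 and 882 reads in BL6, against 82.1, 61.6 and 45.0 in BALB/c (3.90 ± 0.22, adjusted p = 1.3e-07). Ly6e had 9620, 9839 and 8831 in BL6, against 1139, 1142 and 1554 in BALB/c (2.90 ± 0.20). Ly6c2 was higher in BL6 by 2.13 ± 0.28 and its neighbour Ly6c1 lower (-2.13 ± 0.36), with 1529 to 2546 reads of Ly6c2 in BL6 against 341 to 502 in BALB/c, and 62.7 to 110 reads of Ly6c1 in BL6 against 283 to 481 in BALB/c. The coding sequences of Ly6c1 and Ly6c2 are known to be closely alike, and the division of their reads is uncertain.

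Interferon-stimulated genes also went both ways, with more of them higher than lower in BL6. Of 71 tested, 11 were called higher and 5 lower (22.5% called, against 3.71% of all genes), with a median log2 fold change of 0.27. At an unadjusted limma p under 0.05, 26 were higher and 7 lower in BL6. Over all genes tested, 7.43% were higher and 8.04% lower at that threshold. Beside Trim30d and Trim12a, Gvin1, a very large interferon-induced GTPase, had 60.8, 91.7 and 77.0 reads in BL6 and 0 in all BALB/c libraries. The related Gm1966 had 4971, 3785 and 4751 in BL6, against 110, 53.7 and 79.3 in BALB/c, while Gm8979 and 9130208D14Rik, which match Gvin1 in sequence, were lower in BL6 by 5.40 and 6.30 log2 units. In the cluster of chromosome 19, Ifit1bl1, Ifit3, Ifit1 and Ifit2 were all higher in BL6, at 1.55, 1.38, 1.15 and 0.55. Ifit1bl1 averaged 1535 ± 134 in BL6 and 526 ± 74.3 in BALB/c (SD, n = 3 each; limma adjusted p = 1.8e-05).

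Oasl1, of the oligoadenylate synthetase-like family, had 143, 189 and 111 reads in BL6, against 25.5, 25.3 and 31.1 in BALB/c. Oasl2, Oas3 and Dhx58 were higher in BL6 as well (4.81, 0.85 and 1.26). Beside Gbp2b, Gbp11, Gbp4 and Gbp3 were lower in BL6 (-2.93, -0.97 and -0.73), as was Mx2 (-1.35). Epsti1, chosen after its values were seen, had 5934, 6119 and 7321 in BL6, against 1800, 2005 and 3121 in BALB/c (1.52 ± 0.19). Stat2, Irf7 and Irf9, factors of the interferon response that were also picked after their values were seen, were not called (0.14, -0.18 and 0.33).

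The IFI200 genes of chromosome 1 encode nucleic acid sensors and regulators. Of 11 tested, 3 were higher and 3 lower in BL6 (54.5% called, against 3.71% of all genes). Ifi213 had 483, 523 and 552 reads in BL6, against 48.1, 49.0 and 74.0 in BALB/c (3.19 ± 0.21), Ifi206 had 1941, 2093 and 1890 in BL6, against 383, 550 and 652 in BALB/c (1.93 ± 0.31), and Ifi209 was higher in BL6 by 1.57 ± 0.19. Ifi214 had 306, 349 and 363 in BL6, against 712, 600 and 833 in BALB/c (-1.06 ± 0.17). Ifi203-ps had 0 reads in all BL6 libraries and 22.1 to 39.7 in BALB/c. Ifi204 (-2.18 ± 0.55) lost its call in 9 of 18 alternatives, with an adjusted p of up to 0.16. Of the 9 GIMAP GTPases, which govern lymphocyte survival, Gimap7 alone was called (-0.60 ± 0.15, not called in 8 of 19 alternatives), with 4486, 4028 and 4323 in BL6, against 5641, 7490 and 6476 in BALB/c.

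Called genes lay near each other. Of the 490, 183 (37.3%) had another called gene starting within 250 kb, against 2085 of 12712 genes that were not called (16.4%). Chromosome 17 had the highest share of called genes (6.45% of 636), followed by chromosome 6 (5.41% of 703) and chromosome 8 (5.02% of 717), and chromosome 10 the lowest of the autosomes (1.87% of 641). In stretches marked out after the values were seen, 16 of 118 tested genes were called in the MHC, 11 of 34 in the NK receptor complex, 5 of 9 around Ly6, 7 of 12 around IFI200, 10 of 29 around the TRIM and Gvin genes and 4 of 6 around Ifit. Over all genes tested 3.71% were called. As the stretches were marked out with the values known, their shares are no test.

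**Figure D5:**
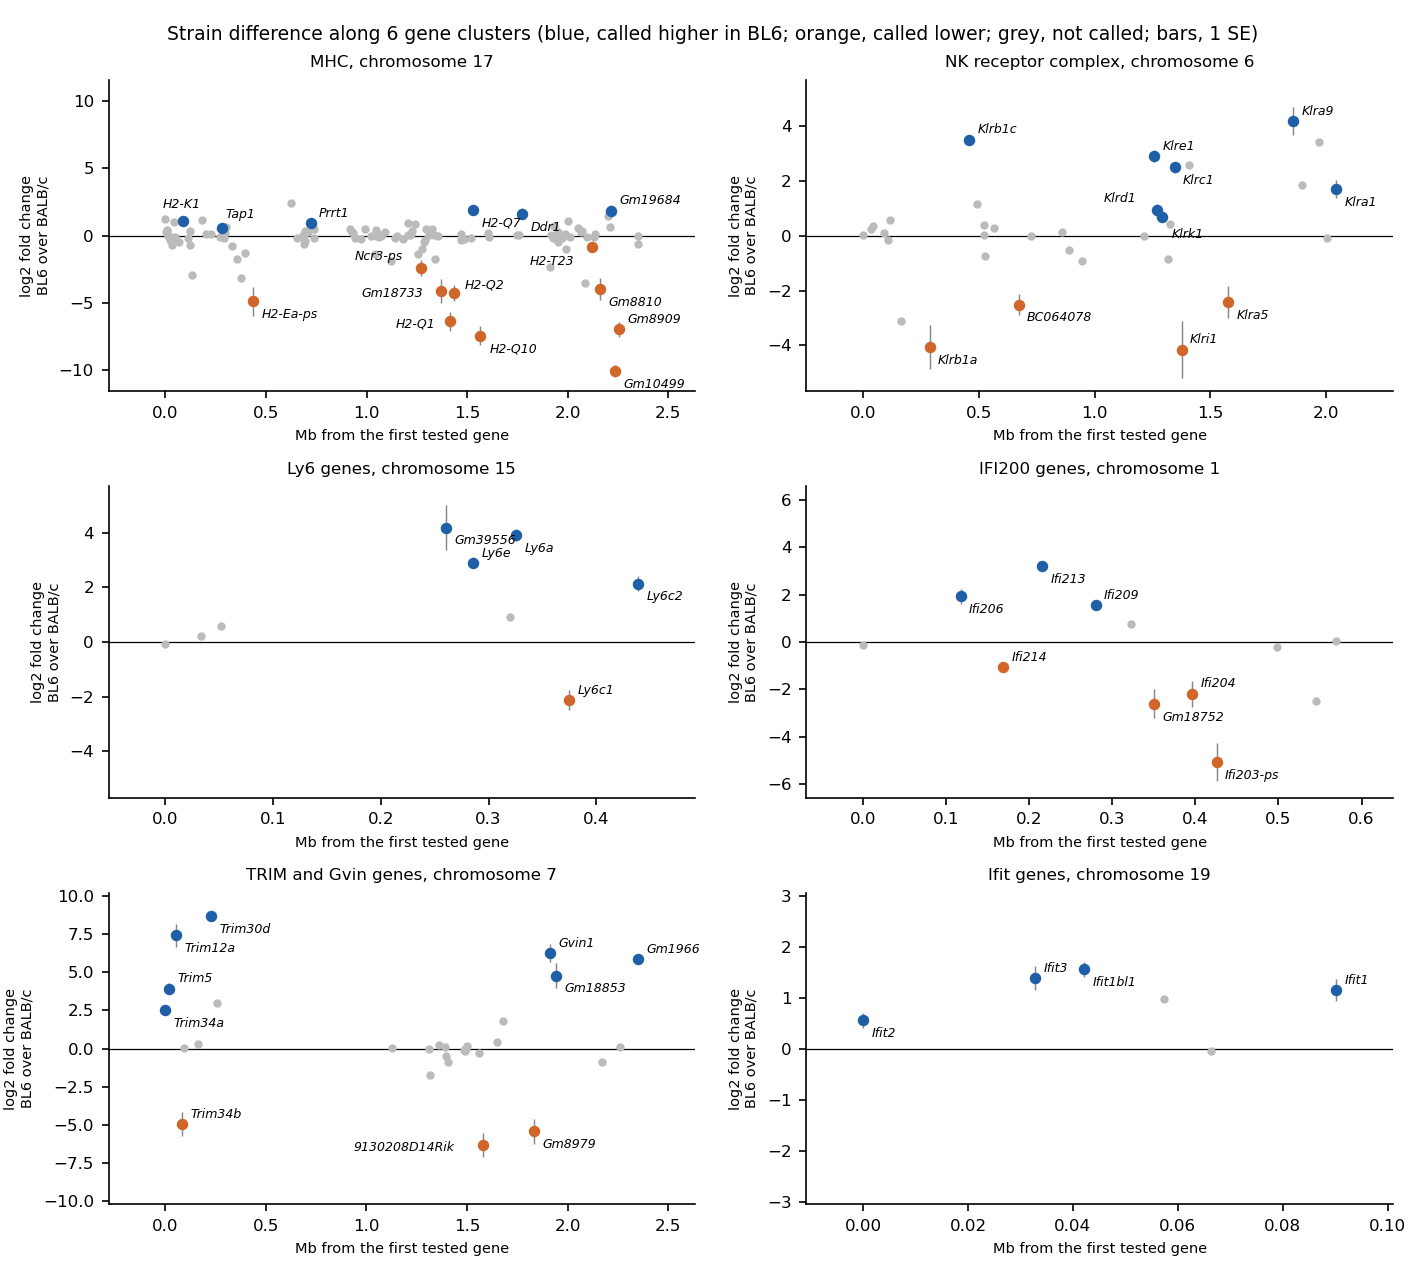
Points give the log2 fold change (BL6 over BALB/c) of each tested gene along 6 clusters, against its distance in Mb from the first tested gene; called genes are coloured and named, with bars of 1 SE. Genes higher (blue) and lower (orange) in BL6 both occur in 5 of the clusters, while in the Ifit cluster the 4 called genes are all higher.

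The ART2 enzymes use NAD to ADP-ribosylate surface proteins of T cells, P2X7 among them, a channel that can be gated in this way. Of 14 tested genes of this pathway, 2 were higher and 2 lower in BL6 (28.6% called, against 3.71% of all genes). Art2b (chromosome 7, 101576970 to 101585600) had 2168, 2259 and 1838 reads in BL6, against 995, 731 and 979 in BALB/c (1.22 ± 0.17, adjusted p = 0.00058). Art2a-ps, its neighbour, which is a functional gene in some strains but a pseudogene in C57BL/6, had 83.8, 141 and 143 in BL6, against 2288, 1724 and 1756 in BALB/c (-3.99 ± 0.25, adjusted p = 2.8e-07). The ART2 pair thus differed in opposite directions, and reads could be divided between these similar genes. P2rx7 itself had 3483, 2893 and 3292 in BL6, against 2466, 2186 and 2456 in BALB/c, and was not called (0.44 ± 0.16, adjusted p = 0.19).

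Of the adenosine pathway, Nt5e (CD73), which makes adenosine from AMP, had 768, 513 and 633 reads in BL6, against 267, 254 and 449 in BALB/c (1.01 ± 0.24, adjusted p up to 0.15 in the alternatives). Ada, adenosine deaminase, had 68.1, 156 and 139 in BL6, against 642, 585 and 715 in BALB/c (-2.49 ± 0.27, adjusted p = 7.4e-05). Entpd1 (CD39) and Cd38 were not called (-0.30 and 0.48).

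Of 36 tested cytokine receptor and feedback genes, 3 were higher and 1 lower in BL6 (11.1% called, against 3.71% of all genes). Il7r, the IL-7 receptor alpha chain, had 3201, 2361 and 2056 reads in BL6, against 881, 1096 and 568 in BALB/c (1.61 ± 0.24, adjusted p = 0.0012). Ifngr1, a chain of the IFN-gamma receptor, had 5250, 4385 and 3550 in BL6, against 1882, 2122 and 2129 in BALB/c (1.09 ± 0.18). Il4ra (0.53 ± 0.13) and the cytokine signalling inhibitor Socs2 (-0.90 ± 0.22) were called with smaller differences and lost the call in 7 and 9 of 19 alternatives. Of 30 costimulatory, inhibitory and T cell surface genes, Cd160, Cd28 (1.05 ± 0.25, not called in 7 of 19 alternatives) and the inhibitory receptor Btla (0.81 ± 0.15) were higher, and the tetraspanin Cd81 lower (-1.55 ± 0.22), with 115, 171 and 152 in BL6 against 389, 488 and 402 in BALB/c. Among 28 tested chemokine receptor, egress and adhesion genes, the integrin chain Itgb3 alone was called, with 3730, 3129 and 2371 reads in BL6, against 1371, 1989 and 1246 in BALB/c (1.01 ± 0.20). Called shares were 13.3% of the costimulatory list and 3.57% of the adhesion list, the latter near the 3.71% of all genes.

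Of 21 tested cytokine and chemokine genes, 2 were called (9.52%, against 3.71% of all genes). Ccl5 was higher (0.65 ± 0.14), with 3105, 2463 and 3179 in BL6, against 1894, 1738 and 1904 in BALB/c, and its adjusted p of 0.019 ran up to 0.095 in the alternatives. Csf1, the macrophage growth factor, was lower in BL6, with 14.7, 6.01 and 25.5 reads against 412, 229 and 520 in BALB/c (-4.68 ± 0.49, adjusted p = 5.7e-05). Ifng had 552, 341 and 750 in BL6, against 550, 499 and 1013 in BALB/c (adjusted p = 0.66), and Il4 had 285, 170 and 222 in BL6, against 265, 357 and 319 in BALB/c (adjusted p = 0.37). The groups of both cytokines overlapped. Of 19 tested granule genes, Serpina3f, a serine protease inhibitor, was called (5.26% of the list, near the 3.71% of all genes). It had 528, 480 and 985 reads in BL6, against 75.0, 109 and 56.8 in BALB/c (3.01 ± 0.32). At an unadjusted limma p under 0.05, 6 granule genes were higher and 0 lower in BL6. Over all genes tested, 7.43% were higher and 8.04% lower at that threshold. Gzmb had 2153, 2281 and 2867 in BL6, against 876, 1055 and 2651 in BALB/c (0.84 ± 0.31, adjusted p = 0.19), the third BALB/c library lying among the BL6 values, and Gzma was low in both strains (34.6 to 68.1 in BL6, 39.7 to 120 in BALB/c).

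Of 18 tested iNKT1 genes, Klrb1c, Klrd1 and Ccl5 were called (16.7%), and of 13 iNKT2 genes, Plac8 was called (7.69%), with 712, 777 and 675 reads in BL6, against 434, 259 and 363 in BALB/c. None of 7 tested iNKT17 genes was called by limma, edgeR or DESeq2 (2 had an unadjusted p under 0.05). Of 34 transcription factors, Zfp683, which encodes Hobit, a regulator of tissue residency, was called, with 1775, 1468 and 1733 in BL6, against 501, 434 and 869 in BALB/c (1.52 ± 0.27, adjusted p = 0.0041). Among 37 cell cycle genes Mcm6, a subunit of the replicative helicase, was called (0.96 ± 0.20), with an adjusted p of up to 0.093 in the alternatives. These single calls were 2.94% of the transcription factors and 2.7% of the cell cycle genes, against 3.71% of all genes. No member of the 9 SLAM receptor, SAP and FYN genes tested was called by limma or edgeR and 1 was by DESeq2 (3 had an unadjusted p under 0.05, all lower in BL6).

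Heat shock and immediate early genes are commonly raised when tissue is handled in the warm, and both strains were prepared in this way. None of 48 heat shock chaperone genes was called by limma, edgeR or DESeq2, and 5 had an unadjusted p under 0.05. Over all genes tested, limma called 3.71%, and 15.5% had an unadjusted p under 0.05. Hspa1a had 6764, 3472 and 5766 reads in BL6, against 4506, 4987 and 7933 in BALB/c (-0.13 ± 0.64), and Hspa1b (-0.03), Hsph1 (-0.55), Dnaja1 (-0.35), Dnajb1 (-0.17) and Hsp90aa1 (-0.48) were not called. None of 60 immediate early genes was called by limma or edgeR and 2 were by DESeq2, with 7 at an unadjusted p under 0.05. Fos had 1487, 1203 and 1812 in BL6, against 1312, 1954 and 1791 in BALB/c, and Fosb, Jun, Junb, Rhob, Dusp1, Ppp1r15a, Nr4a1 and Klf2 lay between -0.45 and 0.26. The SE of Hspa1a, Fos, Fosb and Nr4a1 was 0.63 to 0.84 log2 units. None of 23 apoptosis regulators (2 at an unadjusted p under 0.05) and 9 mitochondrial genome transcripts (1) was called by limma, edgeR or DESeq2. At an overall share of 3.71% lists of these sizes can hold few calls or none, so the strains are not shown to be alike in them. Of the 20 genes that the text of the study names, Art2b alone was called.

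Ighm, the immunoglobulin mu constant region, was higher in BL6, with 1572, 1692 and 1685 reads against 241, 215 and 198 in BALB/c (2.92 ± 0.14, adjusted p = 2.5e-08). Of the other B and plasma cell genes, Cd79a, Cd79b and Ms4a1 had at most 16.3 reads in BL6 and 42.4 in BALB/c. Igkc had 7.34 to 50.9 in BL6, against 260, 314 and 4.29 in BALB/c (adjusted p = 0.50), and Jchain had 1.50 to 7.84 in BL6, against 41.8 to 93.4 in BALB/c (adjusted p = 0.055). Ighm was thus the sole gene of the list with high reads in BL6 apart from Xbp1 (723 to 768 in BL6, 634 to 1262 in BALB/c). Trac, the constant region of the T cell receptor alpha chain, was higher in BL6, with 6354, 5929 and 5289 against 4010, 2676 and 3456 in BALB/c (0.81 ± 0.16, adjusted p up to 0.063 in the alternatives), whereas Cd3e, Cd3g, Lck and Cd4 were not called (-0.13, -0.37, -0.11 and 0.20).

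Apobec3, the restriction factor of retroviruses with known alleles in these strains, had 1775, 1650 and 1837 reads in BL6, against 317, 251 and 314 in BALB/c (2.58 ± 0.15, adjusted p = 1.5e-07). Prkdc, which carries a known coding variant in BALB/c, was not called (0.15 ± 0.16). Further genes with high reads were chosen after their values were seen. Ctse, the aspartic protease cathepsin E, had 132, 162 and 172 in BL6, against 1780, 1863 and 1770 in BALB/c (-3.54 ± 0.17), and Anxa1, annexin A1, was lower in BL6 (-1.59 ± 0.22). Padi2, a peptidyl arginine deiminase, had 2171, 1965 and 1860 in BL6, against 323, 259 and 403 in BALB/c (2.62 ± 0.24), and Pdk1, a kinase that inhibits pyruvate dehydrogenase, was higher in BL6 (2.02 ± 0.24). The groups did not overlap in these 4 genes, which holds for every called gene and for 20.4% of all genes tested.

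Short RNAs varied within groups. Gm24187, annotated as a miRNA, had 30655, 8676 and 39370 reads in BL6, against 6878, 1927 and 661 in BALB/c, and the lowest BL6 value was close to the highest of BALB/c. Rny3, a Y RNA, had 48.2, 70.7 and 27.4 in BL6, against 826, 1063 and 96.5 in BALB/c, and Snord15a had 856, 1635 and 853 in BL6, against 4154, 5205 and 1678 in BALB/c. In each of these genes BALB/c library N1229 was the lowest of its group, and the log2 fold change was smaller in cold liver (1.11 for Gm24187, -0.27 for Rny3 and -0.88 for Snord15a), though limma called the interaction for none of them. These 3 genes were chosen after their values were seen.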

How the data were processed

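Per the labels and the study's methods, RNA of sorted CD4+ iNKT1 cells was made into libraries with a strand-marking kit and sequenced from 1 end over 75 bases. For trimming the authors used Trim Galore 0.4.4, for alignment to GRCm38 STAR, and for counts per gene featureCounts with GENCODE annotation; the strand setting of the counting is not given in the sources used here. The deposited signal is a read count divided by a DESeq2 size factor per library, called normalized reads here. Values were whole multiples of 1 read for at least 99.993% of values in each library (tolerance 0.05 reads), so that whole reads were recovered for edgeR and DESeq2, which called 475 and 863 genes. The table held 53714 genes and 1 line without a gene. The deposited table also holds the authors' own comparison of thymus with other organs as log2 fold changes, a standard error and Wald score, and p-values computed by DESeq2, none of which was used.

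limma 3.58.1 with a mean-variance trend was fitted to log2(value + 1) of 11 liver libraries in 4 groups, keeping genes that reached 10 in 3 or more libraries. Fold changes are BL6 over BALB/c on that scale and understate low genes. edgeR 4.0.16, DESeq2 1.42.0, quantile and TMM scaling, other filters and pseudocounts, library number ranges as a block and leaving out each library were the alternatives. Copies were matched to transcripts by BLAST. The same steps were tested on simulated data. In the digested liver contrast, of 98 genes changed 3-fold, 67.3% were called, of 98 changed 2-fold, 28.6%, and of 12659 unchanged genes, 3. Members and gene lists were chosen with earlier results of these data known. Named genes are the 15 highest and 15 lowest called genes with over 300 reads and no overlap, up to 6 called genes of each list, genes the study's text names and the most abundant markers; other genes, further list members included, were chosen after their values were seen. The labels do not say which pool of mice made which library, so p-values measure the spread between libraries. No pair of libraries of a group was alike within sampling noise (chi-square per degree of freedom 12.8 to 237). Values after ± are standard errors of the limma fit or, where marked, SDs of 3 libraries. The floor of 3 reads per library covers counting error only.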

Additional observations from a re-analysis of the deposited data

How the results depend on the processing

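No paired analysis was possible because the labels do not say which cold and digested libraries came from the same mice. The fit took all libraries as independent, though by the study's methods livers were divided between the preparations. The count of 490 genes in digested liver was 864 with all 20 libraries in the fit, 863 by DESeq2 and 228 under the filter of over 300 reads, and 303 to 588 when a digested liver library was left out. The count of 340 in cold liver was 543 by DESeq2, 155 under the filter of over 300 reads, 167 with the library range as a block and 183 to 655 when a liver library was left out. The interaction count of 0 was 1 by DESeq2, 1 with the library range as a block and 0 to 7 when a liver library was left out, 7 without BALB/c library N1227. The count at the fold threshold of 3 stayed within 1.5 times of 125 under every alternative run. No called named gene changed direction in any alternative, while genes that were not called did, such as Hspa1a (-0.13, and 0.12 without BALB/c library N1229) and Hspa1b (-0.03, and 0.27 without it). Over the named genes, a call was lost in 88 cases and gained in 7, against 2188 in which the result stayed on its side of the threshold. The cause of these changes was not tested. Depth was 9336861 to 17767674 reads a library, and with 3 libraries a strain small differences can be missed.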
